A study of Mus musculus with 8 samples.

Results

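The genes of the platelet-derived growth factor (PDGF) system were examined in lungs of mouse fetuses with and without tracheal occlusion (TO). They are the 4 ligand genes Pdgfa, Pdgfb, Pdgfc and Pdgfd and the 2 receptor genes Pdgfra and Pdgfrb, which were found by symbol and make up 6 of the 55385 genes listed in the count files. All 6 passed the filter on low counts. RNA came from whole lungs of C57BL/6 fetuses at E18.5, 4 of them control lungs and 4 TO lungs, named here by group and replicate number. In TO fetuses the trachea had been tied at E16.5, together with 1 carotid artery and 1 jugular vein, so that lung fluid stayed in the airways. Dams in the TO procedure received progesterone, and the paper does not say whether the control fetuses came from such dams. The labels speak of lung specimens and say nothing of litters or pooling, so the p-values below measure the spread between these samples. The comparison asks whether the levels of these growth factors and receptors differ between occluded and control lungs.

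PDGF ligands are secreted as dimers that bring 2 receptor chains together on the surface of mesenchymal cells, and the paired receptors then phosphorylate each other and recruit signaling proteins such as PI3 kinase and Src. In the developing lung, PDGF-A from the epithelium acts on Pdgfra-expressing mesenchymal cells, from which the alveolar myofibroblasts arise that build the alveolar septa. PDGF-B from the endothelium acts through Pdgfrb on pericytes, the mural cells of capillaries. PDGF-C and PDGF-D are held inactive by an N-terminal CUB domain until a protease removes it.

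Read pairs on genes numbered 22822261 to 35002061 in 7 libraries (median 30768440), and 270078 in TO 1. Values in TO 1 therefore rest on few reads: 14 for Pdgfa, 17 for Pdgfb, 1 for Pdgfc, 0 for Pdgfd, 55 for Pdgfra and 54 for Pdgfrb. Levels are given as CPM (counts per 1000000 read pairs on genes) after TMM scaling, and in TO 1 a count of 0 allows a level of up to 10.4 CPM (3 reads, counting error only). The study tested 6 of these lungs, without control 3 and TO 1. The values of each member and the median of each list are therefore given for all 8 and for those 6. The summed CPM of 8 macrophage markers was 143.9 to 153 in control and 175 to 261 in TO lungs, and that of 9 skeletal muscle markers was 22.7 to 174 in control lungs, 150.3 to 308 in TO 2, TO 3 and TO 4 and 2757 in TO 1. The 10 cardiomyocyte markers summed to 483 to 5113 CPM in control and 2466 to 7184 CPM in TO lungs. The part of these cells in the results below was not tested. The lung epithelial gene Nkx2-1 had a mean of 601 CPM in control lungs and 489.7 CPM in TO lungs, and Sftpc, the surfactant protein C gene of alveolar type 2 cells, means of 8057 and 8135 CPM.

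The 5′ flanks of 3 members are shown before their values, so that both ligands that need activation and 1 receptor can be read for base composition and for motifs of factors that act in mesenchyme and in stretched tissue. RefSeq starts on GRCm38.p6 were found for 4 of the 6 genes. Each window holds the 250 bases before the start, written 5′ to 3′ on the strand of the gene, and capitals mark matches to a TEAD motif (CATTCC, the site type bound by the partners of Yap), to an SP1 GC box (GGGCGG) or to the CArG box, the motif of serum response factor. Both strands were searched, so a match on the reverse strand appears as its complement. The windows are chr3:81036166-81036415 for Pdgfc, chr9:6168236-6168485 for Pdgfd and chr5:75152001-75152250 for Pdgfra, all on the + strand and outside the exons of these genes in GENCODE M21.
Pdgfc: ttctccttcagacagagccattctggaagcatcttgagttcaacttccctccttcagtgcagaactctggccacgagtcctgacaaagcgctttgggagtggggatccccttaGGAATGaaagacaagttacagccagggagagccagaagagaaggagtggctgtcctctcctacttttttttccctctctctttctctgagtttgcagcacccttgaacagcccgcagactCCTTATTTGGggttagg
Pdgfd: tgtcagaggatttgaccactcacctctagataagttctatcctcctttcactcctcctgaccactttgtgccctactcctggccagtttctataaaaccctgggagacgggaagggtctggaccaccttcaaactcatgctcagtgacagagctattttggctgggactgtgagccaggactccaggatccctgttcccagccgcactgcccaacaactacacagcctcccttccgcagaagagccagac
Pdgfra: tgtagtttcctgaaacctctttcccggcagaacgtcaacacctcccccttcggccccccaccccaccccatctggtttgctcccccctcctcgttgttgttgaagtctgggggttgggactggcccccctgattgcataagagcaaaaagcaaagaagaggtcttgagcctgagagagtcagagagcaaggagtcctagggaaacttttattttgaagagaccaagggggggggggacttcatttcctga
The flank of Pdgfc was 50.8% G and C and held 1 TEAD match, at 137 to 132 bases before the start, and 1 CArG box, at 17 to 8 bases before it. The flanks of Pdgfd, 53.6% G and C, and of Pdgfra, 54.4% G and C, held none of the 3 motifs. The window before the more upstream of 2 RefSeq starts of Pdgfa was 72.4% G and C with 2 GC boxes, and 93 of its bases lie in Pdgfa exons of GENCODE M21, so its letters are not printed. Of 32851 RefSeq windows of the same length, 32.7% held a GC box, 12.6% the TEAD motif and 1.47% a CArG box. These matches describe letters in the window and no binding was measured.

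Receptor transcripts were the most abundant of the family. Per kilobase of exon in control lungs (mean ± SD, n = 4), Pdgfrb was at 39.4 ± 6.31 CPM per kb, Pdgfra at 30.1 ± 5.60, Pdgfb at 21.5 ± 2.65, Pdgfa at 20.03 ± 1.90, Pdgfd at 3.20 ± 0.68 and Pdgfc at 2.29 ± 0.33. Of neighbors in this order, only Pdgfa and Pdgfd had control values that did not overlap, with Pdgfa 6.38-fold higher per kb on average. Within each library Pdgfrb was above Pdgfra and Pdgfra above Pdgfb in 8 of 8, whereas Pdgfb was above Pdgfa in 3 of 8, all of them controls. That last order depends on the counting, which leaves out reads on bases that Pdgfa shares with an antisense gene. Adding the counts of each strand keeps such reads. It raised Pdgfa from 1327 to 1511 reads in control 1 and from 1403 to 1700 in control 4, and left Pdgfb unchanged. Per kb, Pdgfb then stayed above Pdgfa in control 3 only. In the 7 deep libraries, the highest CPM of a gene was 1.28-fold (Pdgfa) to 1.75-fold (Pdgfd) the lowest. The plot of CPM by library shows control 3 as the highest control lung for each of the 6 genes.

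**Figure D1:**
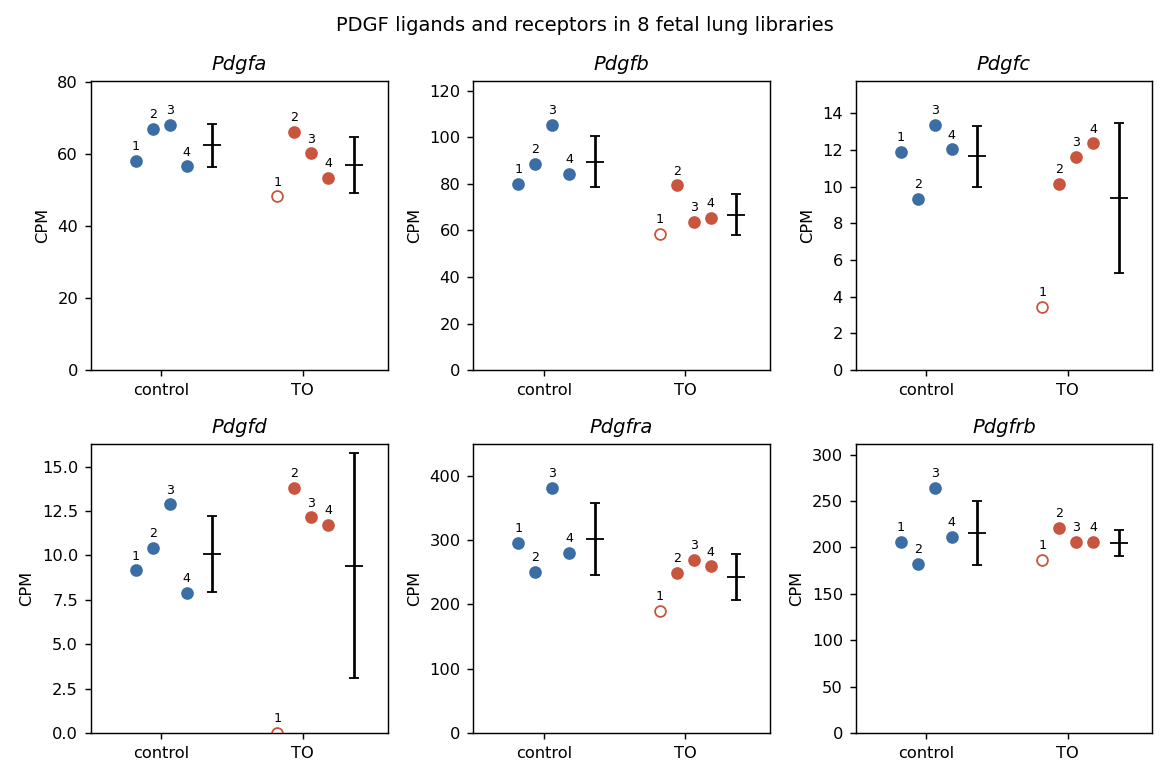
CPM of the 6 PDGF genes (y axis, linear, from 0) in 4 control and 4 TO lungs, with the replicate number over each point, TO 1 as an open circle because of its 270078 read pairs, and mean ± SD (n = 4) in black. All 4 TO lungs lie below all 4 controls for Pdgfb, and the groups overlap for the other 5 genes.

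None of the 6 genes was called changed. In the fit of all 8 libraries with the quasi-likelihood test of edgeR, 0 of 22545 genes tested (0%) had an adjusted p under 0.1, and 530 (2.35%) had an unadjusted p under 0.05, while DESeq2 called 7 (0.031%) and limma-voom 0. With the replicate number as a block, 3 genes (0.0133%) were called, and no PDGF gene was among them. Among the 21859 genes tested in the 6 libraries, 0 were called by edgeR, 44 (0.201%) by DESeq2 and 219 (1%) by edgeR with the block. Again no PDGF gene was among them, and an unadjusted edgeR p under 0.05 was found for 1123 (5.14%). In those 6 libraries replicate 1 has no TO lung and replicate 3 no control. The block fit there takes its difference from replicates 2 and 4 only. Of the PDGF genes, 5 of 6 had a negative log2 fold change over 8 libraries (median -0.11, against -0.018 over all genes tested), and 3 of 6 over the 6 libraries (median 0.0095, against -0.0045). In bulk tissue, fewer cells of a type and less RNA per cell cannot be told apart.

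Pdgfb, which encodes the ligand of endothelial cells and platelets (ENSMUSG00000000489.7, chr15:79995874-80014977, - strand), showed the largest difference of the family over 8 libraries. Its CPM was 80.1, 88.7, 105.2 and 84.1 in controls 1 to 4, and 58.7, 79.3, 63.6 and 65.4 in TO 1 to 4. Every TO lung lay below every control lung, but TO 2 only just below control 1, and the 17 reads of TO 1 leave an exact Poisson interval of 34.2 to 93.9 CPM that reaches into the control range. Mean CPM was 89.5 ± 11.0 in control and 66.7 ± 8.85 in TO lungs (SD, n = 4), a log2 fold change of -0.40 (SE 0.14, 95% interval -0.71 to -0.086). The unadjusted p of edgeR was 0.0169, and 0.918% of the genes tested had one under 0.05 with TO lower. The adjusted p over all genes tested was 1.0. Over the 6 libraries the log2 fold change was -0.28 (SE 0.12, unadjusted edgeR p of 0.0440, adjusted p = 0.907, with 2.07% of genes lower in TO at an unadjusted p under 0.05). Genes whose TO values were all below the control values made up 1.3% of those tested in 8 libraries and 5.82% in the 6. Within the 3 sets of libraries that share the last 4 digits of their specimen name, TO 1 aside, the log2 differences of Pdgfb were -0.33, -0.16 and -0.73. The first set held 2 control lungs and 1 TO lung, and the others 1 of each. Their sign adds nothing, because with every TO lung below every control each set had to be negative.

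Endothelial and platelet markers are given beside Pdgfb because both cell types express it. Of 10 endothelial markers, 9 had a negative log2 fold change over 8 libraries (median -0.23, range -0.32 to 0.072) and 0 were called by edgeR, with 0 at an unadjusted p under 0.05. Over the 6 libraries 6 were negative and the median was -0.087. Their summed CPM was 2125 to 2585 in control lungs and 1515, 2642, 1764 and 1997 in TO 1 to 4. TO 2 had the highest Pdgfb and the highest endothelial sum of the TO lungs. Its endothelial sum was above that of every control, while its Pdgfb of 79.3 CPM was below every control. The most abundant of them, the cadherin gene Cdh5 and the adhesion gene Pecam1, had log2 fold changes of -0.28 and -0.24 over 8 libraries, and -0.14 and -0.033 over the 6. Platelet and megakaryocyte markers went the other way, with 7 of 8 tested having a positive log2 fold change (median 0.34, or 0.26 over the 6 libraries) and a summed CPM of 28.5 to 40.2 in control and 45.3 to 51.9 in TO lungs. The means of those tested went from only 0.44 to 17.1 CPM over 8 libraries. In TO 1, 5 of the 9 listed had 0 reads, so its sum rests on few reads. The part of both cell types in the Pdgfb values was not tested.

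Pdgfa, the ligand of airway and alveolar epithelium (ENSMUSG00000025856.15, chr5:138976014-138997370, - strand), was at 58.1, 67.0, 68.1 and 56.7 CPM in controls 1 to 4, and at 48.3, 66.3, 60.3 and 53.4 CPM in TO 1 to 4. The groups overlapped, and the mean of 62.5 ± 5.91 CPM in control lungs stood beside 57.1 ± 7.86 CPM in TO lungs (SD, n = 4). The log2 fold change was -0.097 (95% interval -0.40 to 0.21, edgeR adjusted p = 1.0), and -0.017 over the 6 libraries (-0.30 to 0.26). The interval over 8 libraries spans fold changes from 0.756 to 1.16, and that over the 6 from 0.813 to 1.20. Epithelial markers are given beside it: 5 of 6 pan-epithelial genes had a negative log2 fold change (median -0.18) and 4 over the 6 libraries (median -0.097), with Nkx2-1 at -0.28 and -0.20 and the cadherin gene Cdh1 at -0.24 and -0.16. Exons of Pdgfa share bases with the antisense gene 6330403L08Rik, and adding the counts of each strand, which keeps reads that fall on both genes, raised its total by 14.7%.

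Pdgfc and Pdgfd, the ligands that need proteolytic activation, were the least abundant and the least precisely measured. Pdgfc (ENSMUSG00000028019.9, chr3:81036416-81214040, + strand) was at 11.9, 9.33, 13.4 and 12.0 CPM in controls 1 to 4 and at 3.45, 10.1, 11.6 and 12.4 CPM in TO 1 to 4. The 3 deep TO lungs lay inside the control range, and TO 1 had 1 read, for a Poisson interval of 0.087 to 19.2 CPM. Its log2 fold change was -0.11 (95% interval -0.64 to 0.42) over 8 libraries and 0.036 (-0.41 to 0.48) over the 6.

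Pdgfd (ENSMUSG00000032006.15, chr9:6168584-6378850, + strand) was at 9.16, 10.4, 12.9 and 7.87 CPM in controls 1 to 4, at 0 reads in TO 1, and at 13.8, 12.1 and 11.7 CPM in TO 2, TO 3 and TO 4. It was the only member with a positive log2 fold change over 8 libraries, 0.19 (SE 0.33, 95% interval -0.53 to 0.92, unadjusted edgeR p of 0.572). Over the 6 libraries the groups separated, with a mean of 9.15 ± 1.28 CPM in control and 12.6 ± 1.10 CPM in TO lungs (SD, n = 3). There the log2 fold change was 0.45 (SE 0.19, 95% interval 0.019 to 0.89), at an unadjusted edgeR p of 0.0424 and an adjusted p of 0.907, where 3.07% of the genes tested were higher in TO at an unadjusted p under 0.05. Groups that do not overlap, with TO higher, were seen for 5.1% of the genes tested in those 6 libraries. Control 3, at 12.9 CPM, lies above TO 3 and TO 4, so the separation depends on leaving it out. The 10.4 CPM that 0 reads allow in TO 1 lies above the level of controls 1 and 4.

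Pdgfra (ENSMUSG00000029231.15, chr5:75152292-75198215, + strand), the receptor of myofibroblast and lipofibroblast precursors, was at 295, 250.4, 381 and 280.1 CPM in controls 1 to 4. In TO 1 to 4 it was at 189.8, 249, 269.5 and 259 CPM. The TO lungs overlapped with control 2 only, which lay below TO 3 and TO 4. Mean CPM was 302 ± 56.1 in control and 242 ± 35.7 in TO lungs (SD, n = 4), a log2 fold change of -0.30 (SE 0.16, 95% interval -0.65 to 0.050, unadjusted edgeR p of 0.0860, adjusted p = 1.0). Without control 3 and TO 1 it was -0.088 (-0.33 to 0.15), less than 1 SE from 0. Of 10 myofibroblast markers, 8 had a negative log2 fold change over 8 libraries (median -0.11) and 4 over the 6 (median 0.11), with the elastin gene Eln at -0.12 and 0.58 and the myosin gene Myh10 at -0.24 and -0.096. The 8 lipofibroblast markers had a median of -0.031 over 8 libraries and 0.22 over the 6, with Npnt at -0.15 and -0.031 and Tcf21 at -0.045 and 0.24.

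Pdgfrb (ENSMUSG00000024620.11, chr18:61045150-61085061, + strand), the receptor of pericytes and vascular smooth muscle, was at 206, 182, 264 and 211 CPM in controls 1 to 4 and at 186, 221, 205 and 206 CPM in TO 1 to 4. All TO lungs lay within the control range. The log2 fold change was -0.069 (95% interval -0.37 to 0.23, edgeR adjusted p = 1.0) over 8 libraries, 0.075 (-0.16 to 0.31) over the 6, and 0.057 without control 3 alone, so its sign depends on control 3. Pericyte markers are given beside it. Their summed CPM was highest in control 3, at 1978, and 1277 to 1431 in the other controls, against 1204 to 1543 in TO lungs. Of the 12, 9 had a negative log2 fold change over 8 libraries (median -0.14) and 5 over the 6 (median 0.017), with the melanoma cell adhesion molecule gene Mcam at -0.22 and 0.034 and the guanylate cyclase gene Gucy1a1 at -0.15 and 0.10. Of 9 smooth muscle markers, 5 had a positive log2 fold change over 8 libraries (median 0.12) and 6 over the 6 (median 0.25). Both medians are the value of Tagln, which had a mean of 0.40 CPM over 8 libraries and 0 as its lowest value. The 2 most abundant went the other way, Acta2 at -0.42 and -0.092 and Myh11 at -0.27 and -0.25.

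**Figure D2:**
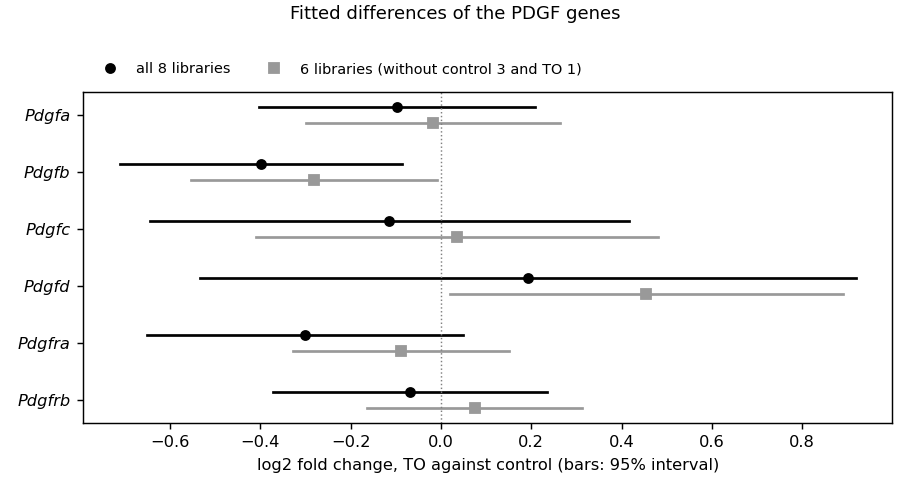
Log2 fold change, TO against control (x axis), of each PDGF gene with its 95% interval from edgeR, over all 8 libraries (black circles) and over 6 (grey squares). The interval of Pdgfb lies below 0 in both fits, that of Pdgfd lies above 0 in the 6 libraries only, and the other intervals cross 0.

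The ratio of 2 genes within a library does not depend on the scaling of that library, and it was computed for both receptors and for the ligands Pdgfa and Pdgfb. The log2 ratio of Pdgfra to Pdgfrb in CPM was 0.52, 0.46, 0.53 and 0.41 in controls 1 to 4, and 0.026, 0.17, 0.39 and 0.33 in TO 1 to 4. Every TO lung was below every control lung, with TO 3 and control 4 nearly touching. Of all pairs among 14041 genes, 1.88% had ratios that did not overlap between the groups in 8 libraries, 3.3% without TO 1 and 11.6% in the 6. Means were 0.48 ± 0.058 in control and 0.23 ± 0.16 in TO lungs (SD, n = 4), a difference of -0.25 (two-sided exact permutation test, p = 0.0286, the smallest that 4 against 4 can give, and 0.0286 after Benjamini-Hochberg adjustment over the 2 ratios). The difference was -0.18 without TO 1 (exact permutation p = 0.0286) and -0.16 in the 6 libraries (exact permutation p = 0.1, the smallest for 3 against 3). Leaving out a control ended the call each time, with exact permutation p of 0.0857 without control 1 or control 3 and 0.0571 without control 2 or control 4. Paired by replicate number, all 4 pairs went the same way, and the exact permutation p was 0.125, the smallest that 4 pairs can give. Both had to follow from every TO lung being below every control, so the pairing adds nothing. As a share of the reads of both receptors, Pdgfra took 57.0% to 59.1% in control lungs, 53.0%, 56.7% and 55.7% in TO 2, TO 3 and TO 4, and 50.5% in TO 1, where the exact 95% binomial interval of 40.7% to 60.2% includes the control shares. TO 1 is also the library with 2757 CPM of skeletal muscle markers, whose part in its ratio was not tested.

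The log2 ratio of Pdgfa to Pdgfb was -0.46, -0.40, -0.63 and -0.57 in controls 1 to 4, and -0.28, -0.26, -0.078 and -0.29 in TO 1 to 4. Again the groups did not overlap, here with TO lungs above, against the same 1.88% of gene pairs, and Pdgfb already separated the groups by itself. Means were -0.52 ± 0.10 in control and -0.23 ± 0.10 in TO lungs (SD, n = 4), a difference of 0.29 (two-sided exact permutation test, p = 0.0286, 0.0286 after adjustment over the 2 ratios). The difference was 0.27 in the 6 libraries (exact permutation p = 0.1), 0.31 without TO 1 (p = 0.0286), and 0.24 without TO 3 (p = 0.0571). Paired by replicate number it was 0.29 with all 4 pairs in the same direction and an exact permutation p of 0.125. The direction and that p again had to follow from groups that do not overlap. With strand columns added together, reads on bases shared by Pdgfa and its antisense gene count for Pdgfa, whichever gene they came from. The difference was then 0.26 and the call was lost (exact permutation p = 0.0857). In that count TO 1 lay at -0.28, inside the control range of -0.52 to -0.20, and TO 2, TO 3 and TO 4 at -0.066, 0.18 and -0.092, above it. The ratio of the receptors kept its difference of -0.25 in that count (exact permutation p = 0.0286).

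**Figure D3:**
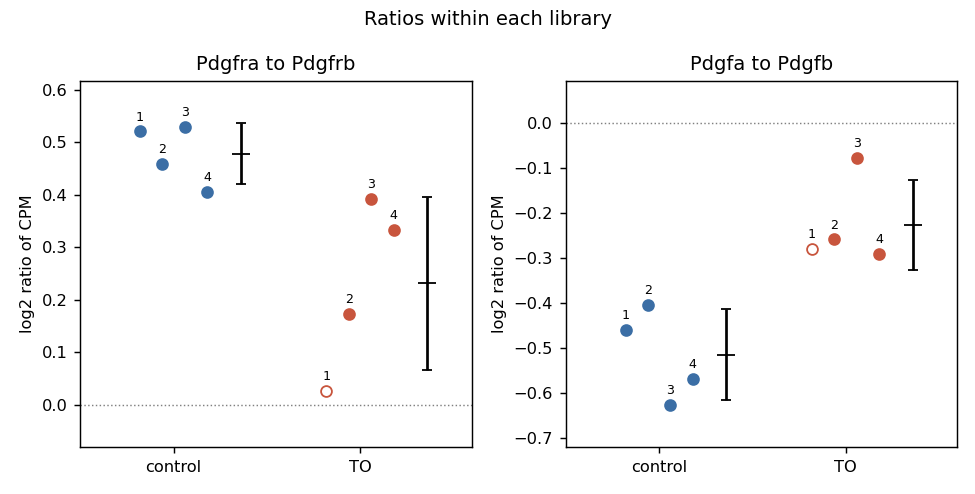
Log2 ratio of CPM within each library (y axis) for Pdgfra to Pdgfrb and for Pdgfa to Pdgfb, in control and TO lungs, with replicate numbers, TO 1 as an open circle and mean ± SD (n = 4). TO lungs lie below all controls in the left panel (mean 0.23 against 0.48) and above all controls in the right panel (mean -0.23 against -0.52).

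Other genes of the pathway were counted in 6 lists holding 81 genes, of which 80 were tested. Over 8 libraries 34 had a positive and 46 a negative log2 fold change (median -0.040), 0 were called by edgeR, and 5 had an unadjusted p under 0.05 (3 higher and 2 lower in TO lungs), beside 2.35% of all genes tested. Over the 6 libraries 46 were positive and 34 negative (median 0.052), with 0 called and 9 at an unadjusted p under 0.05 (7 higher and 2 lower), beside 5.14% of all genes tested. The medians differed in sign between the fits.

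Among 11 coreceptors and proteins that process or bind the ligands, 7 had a positive log2 fold change (median 0.037), and 6 over the 6 libraries (median 0.072). Sparc, a matrix protein that binds PDGF-B, was at -0.089, or -0.087 over the 6 libraries, and Lrp1, a coreceptor of Pdgfrb, at -0.22, or 0.17 over the 6. Thbs1, the thrombospondin gene, was at -0.73 over 8 libraries (unadjusted edgeR p of 0.0235, adjusted p = 1.0) and -0.23 over the 6. Plat, tissue plasminogen activator, the protease that activates PDGF-C, was at 0.47 (unadjusted edgeR p of 0.0360, adjusted p = 1.0) and 0.43 over the 6. Its values are given after they had been seen, as are those of Src, Fosb and Fos below.

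Of 30 signal transducers, 19 had a negative log2 fold change, with a range from -0.39 to 0.23 (median -0.049), and 16 over the 6 libraries (median -0.022). Among the most abundant were the GTPase gene Rac1 at -0.13 and the kinase gene Akt1 at 0.029. Src, a kinase that binds the activated receptors, had the lowest value, -0.39 (unadjusted edgeR p of 0.0190, adjusted p = 1.0), and -0.33 over the 6 libraries. Of 12 negative regulators, 8 had a negative value and none had an unadjusted p under 0.05 (median -0.078). Over the 6 libraries 6 were negative and the median was 0.042, so the sign of the median depends on the libraries. They include the ubiquitin ligase gene Cbl at 0.066 and -0.028 and the Ras inhibitor gene Nf1 at -0.14 and 0.092, over the 8 and the 6 libraries.

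Genes that growth factors induce at the level of transcription had 6 of 12 positive values over 8 libraries (median 0.013) and 9 of 12 over the 6 (median 0.14). Over 8 libraries 1 gene, with a positive value, had an unadjusted edgeR p under 0.05, beside 2.35% of all genes tested. Over the 6 libraries 4 genes did, 3 with positive values and 1 with a negative value, beside 5.14% of all genes tested. Jun was at -0.016 over 8 libraries and 0.095 over the 6, Arid5b at -0.23 and 0.11, and Srf, serum response factor, at -0.099 and -0.0085. Fosb, with means of 0.56 CPM in control lungs and 1.19 CPM in TO lungs, had a log2 fold change of 1.40 (unadjusted edgeR p of 0.0387, adjusted p = 1.0). Fos, another immediate early gene, was at 0.29 over 8 libraries and 1.21 over the 6 (unadjusted edgeR p of 0.00172, adjusted p = 0.907). Of 8 genes of the related VEGF family, 6 had a negative value over 8 libraries (median -0.12) and 2 over the 6 (median 0.058), with Vegfa at -0.11 and 0.27, its receptor gene Kdr at -0.24 and 0.0094, and Flt1 at -0.13 and 0.16. Of 7 genes of the other class III receptor kinases and their ligands, 4 were positive (median 0.34), and 5 over the 6 libraries (median 0.24), with Kitl at -0.0071, its receptor gene Kit at -0.28, and Csf1r, the receptor of macrophage colony-stimulating factor, at 0.34 (unadjusted edgeR p of 0.0457, adjusted p = 1.0). Csf1r is also 1 of the 8 macrophage markers, all of which had positive values, and the part of macrophages in it was not tested.

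**Figure D4:**
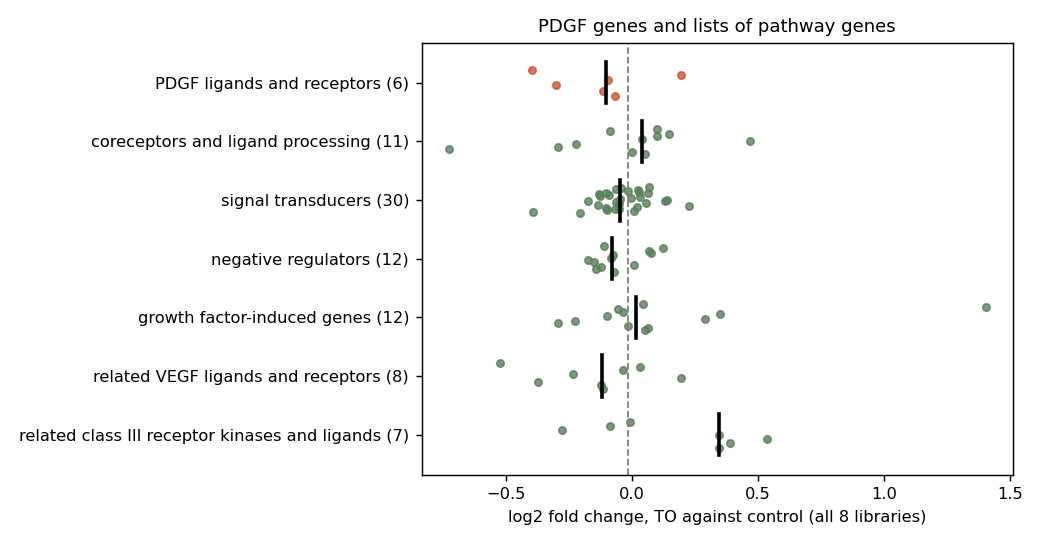
Log2 fold change, TO against control over 8 libraries (x axis), of each tested gene in the PDGF family and in 6 pathway lists (number tested in parentheses), with the list median as a black bar and the median of all genes tested, -0.018, as a dashed line. List medians lie between -0.12 and 0.34.

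The 2 genes whose pattern over the 7 deep libraries was nearest to each PDGF gene were found among 14041 genes by the root mean square (RMS) difference of log2 CPM, each centered on its own mean. For Pdgfb they were Abhd17c (RMS difference 0.044) and Rpusd1 (0.062), where the RMS deviation of Pdgfb about its own mean was 0.23. For Pdgfra they were Hmbox1 and Tbl1x (both 0.044, own deviation 0.20), and for Pdgfrb Ptcd1 (0.025) and Fbh1 (0.033, own deviation 0.15). For Pdgfa they were Tmbim6 (0.033) and Ivd (0.041), and for Pdgfc Zyg11b (0.034) and Sh3pxd2a (0.035). The match was poorest for Pdgfd, with Agbl2 at 0.090 and Unc93b1 at 0.099 against an own deviation of 0.26. No PDGF gene was among the 2 nearest of another.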

How the data were processed

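RNA of whole lungs, 4 control and 4 TO, was made into NexteraXT libraries and sequenced as read pairs by the authors. Per the labels and the methods of the study, reads were aligned with STAR to GRCm38 (mm10), and the version and annotation are not given in the sources used here. The authors deposited unnormalized counts (read pairs on each gene), in 1 column for both strands and 1 for each strand. The share on the first strand was 49.9% to 50.1%, so the column for both strands was used, in which reads on overlapping antisense genes are not counted. Reads without a gene, 9.64% to 14.9%, or on several genes, 5.00% to 5.74%, were left out. Of 55385 gene IDs, 55144 matched GENCODE M21 without version, which gave symbols, coordinates and exon lengths. Reads carry no molecular identifiers, so Poisson and binomial intervals cover counting error only.

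Tests covered genes that had 5 reads or more in at least 3 libraries, 22545 in all 8 libraries and 21859 in the 6 of the study. The main test was the quasi-likelihood F test in edgeR 4.0.16 (R 4.3.3) after TMM scaling, TO against control, with p-values adjusted over every tested gene (Benjamini-Hochberg), at a threshold of 0.1. Ratios were compared by two-sided exact permutation tests, on log2 values with a prior count of 2 reads, and called at a p under 0.05. Alternatives used DESeq2 1.42.0, limma-voom (limma 3.58.1), other scaling and filters, blocks, single libraries left out, summed strand columns, and other tools on the 6 libraries, the last 2 chosen after the data were seen. The scripts were tested on simulated data. The members and gene lists were chosen with earlier results of these data known. Named genes are the 6 members, the 3 most abundant of each pathway list, the 2 most abundant of each cell type list, any list member called, and the 2 nearest patterns of each member. Plat, Src, Fosb and Fos fall outside this rule and were chosen after their values were seen. Of these, 2 genes are not reported here by themselves and remain in the counts and medians.

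Groups share replicate numbers 1 to 4. Deviations from group means of same-numbered libraries correlated over 9335 genes at 0.21, 0.34, 0.49 and 0.34. By these data and by the last 4 digits of their specimen names, replicates 2 and 3 pair across the groups. The labels name no shared litter or day. Replicates 1 and 4 of both groups all share the same last 4 digits. TO 1 correlated with control 4 at 0.33 and with control 1 at 0.21, so the pairing of replicates 1 and 4 by number is not settled. No 2 libraries of the same group agreed within sampling noise. Proteins were not analysed here, nor were the flanks of Pdgfb and Pdgfrb.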

Additional observations from a re-analysis of the deposited data

Results flagged for a closer look

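Pdgfd in TO 1 was at 0 CPM, far from the 11.7 to 13.8 CPM of the other 3 TO lungs (its gap to the nearest lung was 0.849 of the range of the group, past Dixon's critical value). At the 270078 read pairs of that library, 0 reads allow a level of up to 10.4 CPM. The log2 ratio of Pdgfa to Pdgfb in TO 3 was -0.078, against -0.29 to -0.26 in the other TO lungs (gap 0.848 of the range). In all, 16 groups of 4 libraries were examined, and chance flags about 1 group in 20.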

How the results depend on the processing

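Log2 fold changes of the 6 genes kept their side of the threshold in all 124 values from 21 other fits, with a lowest adjusted p of 0.697, for Pdgfd with DESeq2 in the 6 libraries. Their sign changed in 9, all of Pdgfc or Pdgfrb. In the 6 libraries, Pdgfc was at 0.036 and Pdgfrb at 0.075 by edgeR, and both were also positive by DESeq2, limma-voom and the replicate block there. Without control 3 alone Pdgfrb was at 0.057. The cause was not tested. Over single libraries left out, Pdgfb ranged from -0.50 to -0.30, Pdgfra from -0.38 to -0.15, Pdgfd from 0.064 to 0.36, Pdgfrb from -0.14 to 0.057, Pdgfa from -0.18 to -0.035 and Pdgfc from -0.21 to -0.022. A filter of 5 reads in every library removed Pdgfc and Pdgfd, so it gave no value for them. DESeq2 called 7 genes and the replicate block 3, against 0. The block changed no call of a PDGF gene. In all 8 libraries it gave unadjusted edgeR p of 0.0105 for Pdgfb, 0.627 for Pdgfd and 0.0480 for Pdgfra, and in the 6 libraries 0.0931, 0.0713 and 0.667. The block fit of the 6 libraries takes its difference from replicates 2 and 4 only, which limits these p-values and the signs above. A block of the last 4 digits of the specimen name, in all 8 libraries, called 0 genes. With it, unadjusted edgeR p was 0.00717 for Pdgfb, 0.485 for Pdgfd and 0.0458 for Pdgfra. Adjusted edgeR p was 0.848 for Pdgfb and 0.968 for Pdgfra.

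The Pdgfra to Pdgfrb difference lost its call in the 6 libraries (-0.16) and with the replicate block (-0.25), designs whose smallest p is above 0.05. It also lost it without any single control, where a smaller p was possible, with exact permutation p of 0.0571 to 0.0857, and ranged from -0.30 to -0.18 over single libraries left out. The Pdgfa to Pdgfb difference lost it in the 6 libraries (0.27), with the replicate block (0.29) with summed strand columns (0.26) and without TO 3 (0.24, exact permutation p = 0.0571), and ranged from 0.24 to 0.33. Both ratios kept their direction in every alternative. TO 1, with 270078 read pairs, limits what can be seen of Pdgfc and Pdgfd in that lung.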

Other observations

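Marker lists not described beside a PDGF gene are given here by their log2 fold changes over all 8 libraries, in which edgeR called 0 of their genes. Of 8 alveolar type 1 markers, 7 were negative (median -0.30, or -0.045 over the 6 libraries), with Ager at -0.41 and Akap5 at -0.59. Of 8 alveolar type 2 markers, 7 were positive (median 0.23, or 0.45 over the 6 libraries), with Sftpc at 0.015 and Slc34a2 at 0.27. The 6 mesothelial markers had a median of -0.19, or 0.14 over the 6 libraries, with Krt19 at -0.47 and Msln at -0.26.

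All 8 macrophage markers were positive (median 0.66, or 0.73 over the 6 libraries), with Csf1r at 0.34 and Mrc1 at 0.30. All 10 cardiomyocyte markers were positive (median 0.89, or 1.16 over the 6 libraries), with Myh6 at 0.51 and Actc1 at 0.83. All 8 skeletal muscle markers tested were positive (median 2.92, or 1.28 over the 6 libraries, which leave out TO 1), with Myh8 at 3.98 and Acta1 at 3.06. Over 8 libraries 6 macrophage, 0 cardiomyocyte and 7 skeletal muscle markers had an unadjusted edgeR p under 0.05. Of all genes tested, 1.43% did with TO higher. Over the 6 libraries these counts were 6, 0 and 1, beside 3.07% of all genes tested. The platelet genes Itgb3 and Itga2b were at 0.26 and 0.37.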
